A study of Mus musculus with 45 samples.

Results

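The first week of injury by carbon tetrachloride (CCl4) was examined in hepatic stellate cells (HSCs) of male C57BL/6J mice by comparing 3 libraries from mice treated for 1 week with 4 libraries from vehicle-treated mice, 7 of the 45 libraries of the series. The libraries were chosen by their titles alone. The treated mice received CCl4 diluted in corn oil by oral gavage, 2 doses a week after overnight fasting, for 1, 4 or 8 weeks. The controls, labelled as 0 weeks of treatment, were fasted in the same way and received corn oil alone over 8 weeks, so they had been gavaged for longer than the 1 week group. All mice of the CCl4 experiment carried no transgene or mutation named in the labels, and no age is given for them in the sources used here. HSCs were taken from digested livers by density gradient and sorted as live cells on retinoid autofluorescence, so cells that had lost their retinoids were not collected, and each library stands for sorted cells and not for the whole liver. The later libraries used here comprised 4 from 4 weeks and 3 from 8 weeks of CCl4. Readouts from mice fed chow or a Western diet with fructose (WD), and from HSCs kept 2 hours in suspension or 1 day in culture, came from the other experiments of the series, with 4, 4, 3 and 3 libraries. Chow-fed mice received no gavage, and the study planned the diet experiment so that all its mice were of 1 age at the end.

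HSCs are the vitamin A-storing pericytes of the liver sinusoid. CCl4 is converted by hepatocyte cytochrome P450 into radicals that kill pericentral hepatocytes, and repeated doses lead to fibrosis. In response, quiescent HSCs lose their lipid droplets, divide and turn into matrix-producing myofibroblasts. An acute, inflammatory phase after the first doses is commonly set apart from the fibrogenic phase of repeated injury, and the time course allowed the response at 1 week to be followed into the later weeks.

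Each row of the table held the exon counts of 1 listed gene, but the counts did not follow the listed identifiers. Rows listed for the housekeeping genes Rps18 and Tpt1 were at 0 in the CCl4 libraries, and 36.2% of the 1558 rows listed for families that HSCs should not express, such as olfactory receptors, had a mean count below 1, against 35.1% of all rows. Genes are therefore treated as unnamed and given by the position of their row in the table, no gene function or sequence is attached to any row, and the labelled cell type could not be checked against its markers. Total counts were 4674910 to 7576527 in the 1 week libraries and 2881190 to 4738605 in the vehicle libraries. In these 7 libraries the limit set by 3 counts lay at 0.4 to 1.15 CPM, the count scaled to library size with trimmed-mean factors, and it accounts for counting error alone. The library numbers in the labels of the vehicle, 4 week and 8 week libraries formed one run, whereas those of the 1 week libraries followed directly on the later run of the chow and WD libraries. The numbers separate 1 week from vehicle completely, so the treatment and whatever those numbers stand for cannot be told apart within the CCl4 experiment.

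After 1 week of CCl4, 1864 rows were induced and 1328 were repressed among 13513 rows tested, 13.8% and 9.83% of them (edgeR's quasi-likelihood test, Benjamini-Hochberg FDR at most 0.05 and mean log2CPM above 2). Induction was the larger response in size as well as in number. The median log2 fold change (log2FC) of the induced rows was 1.12 (interquartile range 0.70 to 2.60), a 2.18-fold increase, and that of the repressed rows was -0.72 (interquartile range -0.95 to -0.56). The median over all rows tested was 0.01. In 1837 of the induced rows every 1 week library was above every vehicle library, which held for 25.0% of all rows tested. In 1295 of the repressed rows every 1 week library was below every vehicle library, which held for 20.3% of all rows. The repressed count depended on single libraries: it was 571 without 1 week replicate A, 585 without 1 week replicate B and 880 without vehicle replicate D, whereas the induced count was 1370, 1295 and 1579 in the same fits. In such sorted bulk samples, fewer cells of a type and less RNA per cell cannot be told apart. Nor can a rise within HSCs and RNA of other cell types carried along. For certain transcripts seen in mice but not in culture, the paper holds traces of macrophage mRNA to be the more likely source. Which applies to the rows here was not tested.

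**Figure D1:**
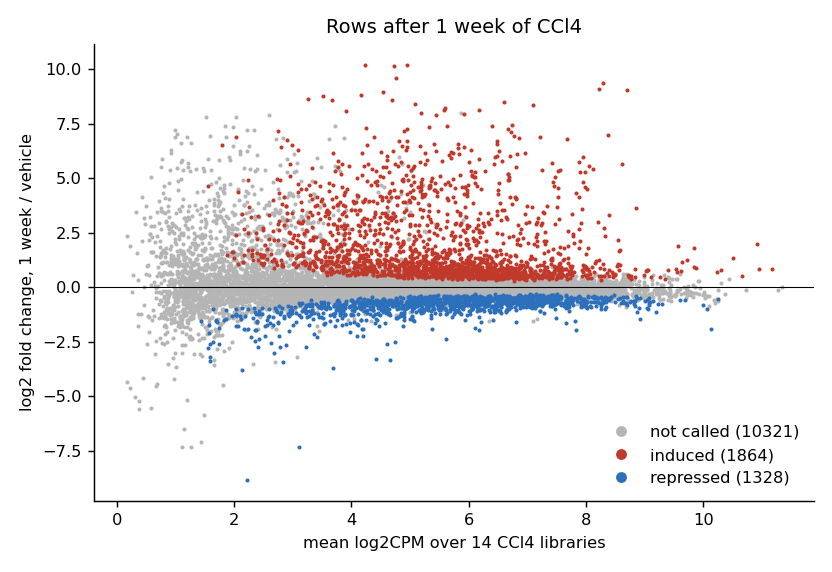
Log2 fold change after 1 week of CCl4 against vehicle (vertical axis) by the mean log2CPM of the row over the 14 CCl4 libraries (horizontal axis), with 1 point per row tested; induced rows are red, repressed rows blue and rows not called grey. Induced rows reach a log2FC of 10.2, while nearly all repressed rows lie between 0 and -4.

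The spread of sizes was asymmetric. Among induced rows, 837 changed by a log2FC below 1, 439 by 1 to 2, 329 by 2 to 4 and 259 by more than 4. Among repressed rows the same classes held 1040, 255, 31 and 2 rows. Rows that changed at least 4-fold thus made up 31.5% of the induced and 2.48% of the repressed rows.

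Calls were spread over the range of expression. Of the 2459 rows with a mean log2CPM of 2 to 4 over the CCl4 libraries, 12.5% were induced and 7.85% repressed. At 4 to 6 the shares were 17% and 10.2% of 4986 rows, and at 6 to 8 they were 14.9% and 12.5% of 4173 rows. Among the 664 rows above 8, 83 were induced and 84 repressed. The median log2FC of induced rows was 1.93 in the class of 2 to 4 and 0.83 above 8, and that of repressed rows was -1.13 and -0.65. None of the 33 repressed rows that fell at least 4-fold had a mean log2CPM above 6, whereas 153 of the induced rows that rose at least 4-fold did. The median standard error of induced rows was 0.39 at a log2CPM of 2 to 4 and 0.19 above 8, so smaller changes could be called among abundant rows.

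**Figure D2:**
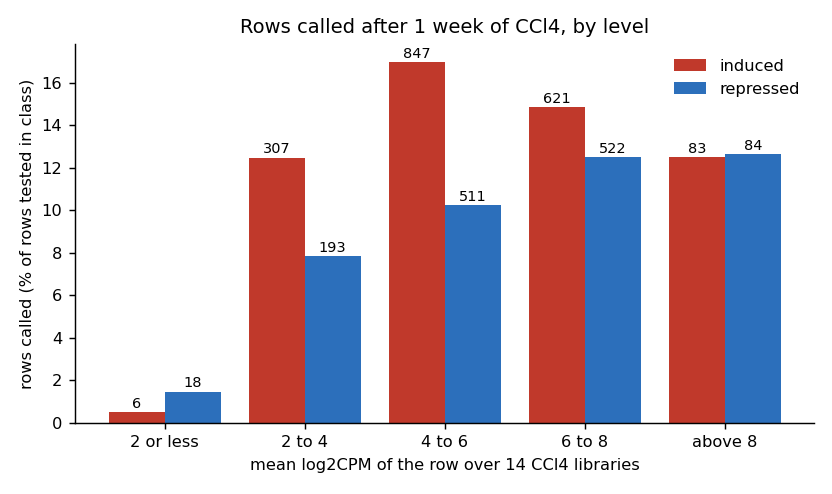
Share of tested rows called induced (red) or repressed (blue) after 1 week of CCl4 (vertical axis, percent) in 5 classes of mean log2CPM (horizontal axis), with the number of rows above each bar. Induced rows are the larger share from 2 to 8, and both directions stand near 12.5% above 8; rows at 2 or less pass the level threshold only through the 2 compared groups.

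The most strongly induced rows had few or no counts in the vehicle libraries. Row 15364 was at 0.44, 0, 0.225 and 0 CPM in vehicle libraries A to D and at 144, 111 and 177 CPM in 1 week libraries A to C. The 3 counts in the vehicle libraries and 2553 in the 1 week libraries gave a ratio of 728 (95% exact interval 249 to 3530, counting error only; FDR = 3.84e-09, edgeR). It stood higher again later, at 330 to 733 CPM at 4 weeks and 503 to 764 CPM at 8 weeks, and both later groups differed from 1 week (log2FC 1.88 ± 0.26 (SE), FDR = 6.5e-05, and 2.09 ± 0.27, FDR = 4.53e-05, edgeR). All 7 treated libraries from 4 and 8 weeks lay above the 1 week libraries.

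Rows 21147, 14742 and 853, and 1 further row among the 5 with the largest fold change, had no count in any vehicle library. Against a limit of 3 counts in the smallest vehicle library, 1.15 CPM, their mean 1 week level was at least 27.7-fold, 27.5-fold, 18.1-fold and 26.8-fold higher. Row 21147 reached 37, 23.3 and 35.4 CPM at 1 week, was lower at 4 weeks with 8.86 to 17 CPM (log2FC against 1 week -1.45 ± 0.27 (SE), FDR = 0.000949, edgeR), and stood at 32.7 to 47.4 CPM at 8 weeks. Its course was therefore not monotonic, and the 4 week libraries did not overlap with those of 1 or 8 weeks. Row 14742 rose to 34.2, 33.6 and 27.5 CPM at 1 week and stood at 43.6 to 59.9 CPM at 8 weeks, and row 853 rose to 29.2, 13 and 20.5 CPM and stood at 53.6 to 60.7 CPM at 8 weeks. Both were higher at 8 weeks than at 1 week (FDR = 0.026 and 0.013, edgeR). The further row, at 45.8, 21 and 25.8 CPM at 1 week, was not called at either later time against 1 week (log2FC 0.00 ± 0.35 and 0.63 ± 0.38).

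In all, 395 of the 23999 rows had at most 3 counts in every vehicle library and more than 3 in every 1 week library. Their median level at 1 week was 3.02 CPM and the highest was 144 CPM, so most lay under the level threshold and only 103 of them were called. The reverse pattern was seen in 15 rows. Since the 1 week libraries were deeper, the counts were also thinned to the smallest total among the CCl4 libraries, which left 318 rows that appeared and 36 that disappeared. Of the 395 rows, 310 had more than 3 counts in every 4 week library, 320 in every 8 week library and 295 in all libraries of both, and 8 were back at 3 counts or fewer in every later library. The median level of the 395 rows was 6.5 CPM at 4 weeks and 8.89 CPM at 8 weeks.

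Strongly repressed rows were few and more variable between libraries. Row 21883 was at 47.1, 28.2, 45.8 and 42.7 CPM in vehicle libraries and at 2, 1.09 and 6.98 CPM in 1 week libraries, 12.2-fold lower on average (log2FC -3.71 ± 0.44 (SE), FDR = 1.27e-05, edgeR). It fell further by 4 weeks, to 0.422 to 0.784 CPM (log2FC against 1 week -2.46 ± 0.61, FDR = 0.00447, edgeR), and stood at 1.28 to 2.18 CPM at 8 weeks. No treated library of any time point overlapped with vehicle. Chow libraries were at 4.37 to 6.47 CPM, within the range of the 1 week libraries, and the row was not called between 1 week and chow (FDR = 0.246).

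Row 1224 was at 27.7, 25.9, 36.4 and 33.5 CPM in vehicle libraries and at 2.4, 3.28 and 3.72 CPM at 1 week, 9.85-fold lower (log2FC -3.31 ± 0.30 (SE), FDR = 7.15e-07, edgeR, the lowest FDR of any repressed row). It was back at 19.1 to 44.9 CPM at 4 weeks and 28.4 to 29.6 CPM at 8 weeks. The chow libraries, at 1.33, 1.48, 4.85 and 4.18 CPM, were as low as those of 1 week, and it was not called between 1 week and chow (log2FC 0.01, FDR = 0.997). Row 12870 had the same form, with 3.52, 5.54, 4.04 and 42.7 CPM in vehicle libraries, 1 count in the 3 libraries of 1 week together, and 0 in all 4 chow libraries. Its ratio of vehicle to 1 week was 195 (95% exact interval 34.6 to 7750, counting error only), its mean vehicle level rested on replicate D, without which it lay below the level threshold (FDR = 0.00108), and it was not called between 1 week and chow (FDR = 0.713), where 1 count stood against none.

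Rows 9392 and 21382 varied widely among vehicle libraries. Row 9392 was at 76.6, 38.5, 5.16 and 41.9 CPM in vehicle libraries and at 4.93, 3.75 and 3.72 CPM at 1 week, 9.8-fold lower (log2FC -3.27 ± 0.67 (SE), FDR = 0.00186, edgeR). Row 21382 was at 26.6, 9.32, 1.35 and 11.9 CPM in vehicle libraries and at 1.33, 0.313 and 0.931 CPM at 1 week (log2FC -3.79 ± 0.92 (SE), FDR = 0.00659, edgeR). Vehicle replicate C was close to the 1 week libraries in both rows. Row 9392 stood at 4.9 to 11 CPM at 4 weeks and 15.5 to 52.5 CPM at 8 weeks. Its chow libraries were at 8.91 to 62 CPM, and it was lower at 1 week than in chow (log2FC -3.08, FDR = 0.00271, edgeR). Row 21382 was at 0.66 to 7.02 CPM in chow and was not called between 1 week and chow (FDR = 0.076, edgeR). Without vehicle replicate A, row 21382 kept its FDR (0.026) but lay below the level threshold. Its call was also lost with thinned counts (FDR = 0.0542, edgeR).

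Among abundant rows the changes were smaller. Row 20735 was at 1311, 1745, 1129 and 1166 CPM in vehicle libraries and at 1955, 2414 and 2728 CPM at 1 week, 1.77-fold higher (log2FC 0.82 ± 0.21 (SE), FDR = 0.0086, edgeR). Row 12444 was at 959 to 1232 CPM in vehicle libraries and 1706 to 2176 CPM at 1 week (log2FC 0.79 ± 0.23, FDR = 0.0186, edgeR), and row 3948 at 1147 to 1473 and 1532 to 2075 CPM (log2FC 0.52 ± 0.17, FDR = 0.0346, edgeR). In all 3 rows the groups did not overlap. Row 12444 returned to 615 to 1387 CPM at 4 weeks and 829 to 1128 CPM at 8 weeks, and its chow libraries were at 1424 to 1779 CPM, above all vehicle libraries. None of the 3 rows was called between 1 week and chow. The call of row 12444 was lost without vehicle replicate A (FDR = 0.0533) or 1 week replicate C (FDR = 0.0671). That of row 3948 was lost without vehicle replicate A, C or D (FDR = 0.0817, 0.0938 and 0.0676) or 1 week replicate B or C (FDR = 0.0973 and 0.127).

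The most abundant repressed rows were lower at 1 week and lower again at 4 weeks. Row 7624 was at 2164 CPM ± 331 (SD, n = 4) in vehicle libraries, 963, 918 and 1428 CPM at 1 week and 177 to 577 CPM at 4 weeks (log2FC at 1 week -0.97 ± 0.32 (SE), FDR = 0.0367, edgeR). Row 22691 fell from 1756 to 2431 CPM to 1198 to 1657 CPM (log2FC -0.52 ± 0.17, FDR = 0.0355) and row 17654 from 1598 to 2415 CPM to 935 to 1313 CPM (log2FC -0.81 ± 0.20, FDR = 0.00855, edgeR). At 4 weeks rows 22691 and 17654 stood at 647 to 741 and 443 to 540 CPM, below every 1 week library. At 8 weeks rows 7624, 22691 and 17654 stood at 403 to 567, 669 to 907 and 397 to 664 CPM. Against chow, row 17654 was lower at 1 week (log2FC -1.04, FDR = 0.0329, edgeR), whereas rows 7624 and 22691 were not called (FDR = 0.517 and 0.265). The calls of rows 7624 and 22691 were close to the threshold and were lost without 1 week replicate A (FDR = 0.144 and 0.178), without 1 week replicate B (FDR = 0.145 and 0.151) and without vehicle replicate D (FDR = 0.0901 and 0.105). Row 7624 also lost its call without vehicle replicate B (FDR = 0.0524) or C (FDR = 0.0594), and row 22691 without vehicle replicate C (FDR = 0.0519) or 8 week replicate C (FDR = 0.05), and in the fit blocked on replicate letter (FDR = 0.0577). That of row 17654 was lost without 1 week replicate A (FDR = 0.0578) or B (FDR = 0.0524). At most 3 reads were counted per position, which can compress differences among abundant rows. Whether it did so in these rows was not tested.

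The share of a library's counts that fell in the induced rows was 7.66% ± 0.69 (SD, n = 4) in vehicle and 15.8% ± 0.67 (SD, n = 3) at 1 week, which describes the selection of the rows. In libraries outside the 2 compared groups, of which those of 4 and 8 weeks entered the row filter and the shared estimate of the spread, the share was 18.4% ± 1.31 (SD, n = 4) at 4 weeks, 19.7% ± 0.89 (SD, n = 3) at 8 weeks and 9.84% ± 0.70 (SD, n = 4) in chow. The share of the repressed rows was 15.2% ± 0.76 (SD, n = 4) in vehicle and 9.48% ± 0.57 (SD, n = 3) at 1 week, then 11% ± 0.34 (SD, n = 4) and 10.8% ± 0.79 (SD, n = 3) at 4 and 8 weeks. In chow it was 11.8% ± 0.46 (SD, n = 4), which lies below every vehicle library and close to the treated libraries. Induced rows with a log2FC of at least 2 took 0.25% of the counts in vehicle, 2.56% at 1 week, 4.99% at 4 weeks and 6.30% at 8 weeks, with 0.42% in chow.

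**Figure D3:**
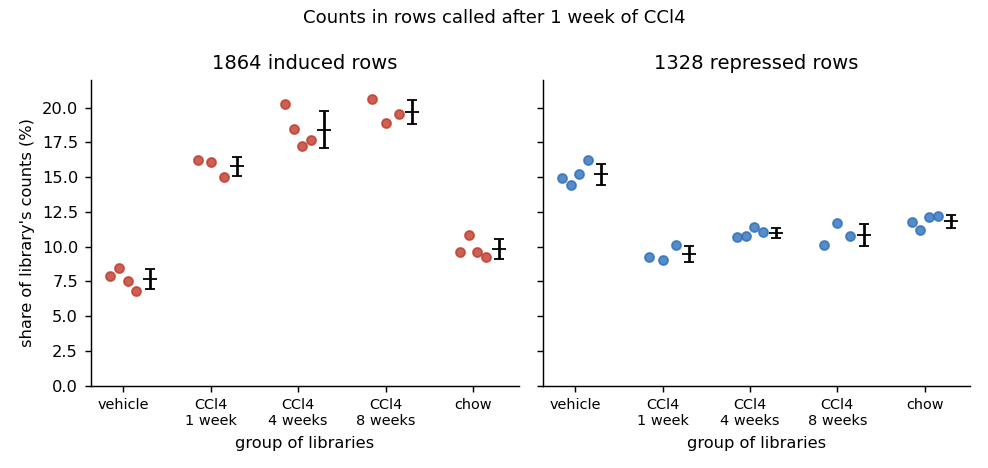
Share of each library's counts (vertical axis, percent) in the 1864 rows induced (left, red) and the 1328 rows repressed (right, blue) after 1 week of CCl4, by group of libraries (horizontal axis), with 1 point per library and the mean ± SD in black. Chow lies at 9.25% to 10.8% for the induced rows, below all CCl4-treated libraries, and at 11.2% to 12.2% for the repressed rows, beside the 4 and 8 week libraries and below vehicle.

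The bulk of the distribution moved little. The median log2(CPM + 1) over the rows tested was 5.29 to 5.33 in the 1 week libraries and 5.21 to 5.25 in the vehicle libraries, a difference of 0.08, and the groups did not overlap (two-sided exact permutation test, p = 0.057, the smallest value that 3 against 4 libraries allow). With library totals in place of trimmed-mean factors the groups overlapped, at 5.17 to 5.32 and 5.07 to 5.23 (exact permutation p = 0.114), and over all rows with any count the difference was 0.27. The lower quartile was 3.66 ± 0.06 (SD, n = 3) at 1 week and 3.36 ± 0.07 (SD, n = 4) in vehicle, again without overlap (exact permutation p = 0.057), and the upper quartile was 6.51 ± 0.03 and 6.49 ± 0.03 (exact permutation p = 0.629). Over the rows tested, the separation was thus seen in the median and the lower quartile. It depended on the rows included. Rows could pass the count filter through treated libraries alone, which favours a lower quartile in vehicle over the rows tested. Over all rows with any count, the lower quartile differed by only 0.005 and the groups overlapped (0.18 to 0.302 and 0 to 0.324). There the upper quartile differed by 0.04 without overlap (exact permutation p = 0.057). Distances between libraries, taken on log2(CPM + 1) over the rows tested, had a median of 112 between 1 week and vehicle, against 58.9 within vehicle and 47.4 within 1 week. The 4 and 8 week libraries were farther from vehicle, with medians of 158 and 175, and lay 103 and 115 from the 1 week libraries. On the first principal component, which held 67.9% of the variance, the 1 week libraries lay at -20.1 to -13.8, between vehicle at -97.6 to -92.0 and 4 weeks at 39.8 to 82.2. The second component, with 11.6%, set the 1 week libraries (40.4 to 53.8) apart from every other CCl4 library (-34.7 to 6.0).

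Most of the early induction was still present later. The 4 and 8 week contrasts share the vehicle libraries with the 1 week contrast, and rows were counted as held where they were called in the same direction, as faded where they were not called and as reversed where they were called in the other direction. Of the 1864 induced rows, 1294 (69.4%) were held at 4 weeks, 485 had faded and 85 were reversed. At 8 weeks 1272 (68.2%) were held, 502 had faded and 90 were reversed. Of all rows tested, 23.1% were induced at 4 weeks and 21.8% at 8 weeks. A faded row need not have changed since 1 week. Of the faded induced rows, 145 of 485 at 4 weeks and 174 of 502 at 8 weeks were not called against 1 week either. Some faded rows had only dropped under the level threshold: 27 at 4 weeks and 22 at 8 weeks still passed an FDR of 0.05 in the same direction. One of these was row 15307, at 17.3, 5.63 and 16.5 CPM at 1 week and still at 6.79 to 9.29 CPM at 8 weeks, with 1 count in all vehicle libraries together. The faded counts were 296 and 314 without 1 week replicate A and 239 and 232 without 1 week replicate B, where 1370 and 1295 rows were called induced at 1 week.

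The fates of the repressed rows were more evenly divided. Of the 1328 repressed rows, 680 (51.2%) were held at 4 weeks, 597 had faded and 51 were reversed, and at 8 weeks 696 (52.4%) were held, 593 had faded and 39 were reversed. Of all rows tested, 23.3% were repressed at 4 weeks and 24.0% at 8 weeks. Among the faded repressed rows, 176 of 597 at 4 weeks and 204 of 593 at 8 weeks were not called against 1 week either. Without 1 week replicate A the held counts were 304 and 329, without 1 week replicate B 310 and 336, and without vehicle replicate D 425 and 456; the faded counts were 253 and 231 without 1 week replicate A and 261 and 237 without 1 week replicate B. With the replicate letter as a block the faded count at 4 weeks was 397. Both later times gave the same fate for most rows, with 1203 induced and 610 repressed rows held at both, 383 and 490 faded at both, and 57 and 18 reversed at both. No row went from held to reversed or from reversed to held.

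Held shares rose with the size of the early change, which itself shares the vehicle libraries with the later contrasts. Induced rows with a log2FC below 1 at 1 week were held at 8 weeks in 44.8% of cases, those with 1 to 2 in 78.1%, those with 2 to 4 in 92.4% and those above 4 in 96.5%. Of the 90 reversed rows, 84 came from the class below 1. Repressed rows below 1 were held in 49.3% of cases, those with 1 to 2 in 62.4% and the 31 rows with 2 to 4 in 77.4%. By level of the row, the induced rows had 71.7%, 71.7%, 62.5% and 68.7% held at 8 weeks in the classes of log2CPM 2 to 4, 4 to 6, 6 to 8 and above 8. Among repressed rows 70.2% were held above a log2CPM of 8 and 46.6% at 4 to 6.

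**Figure D4:**
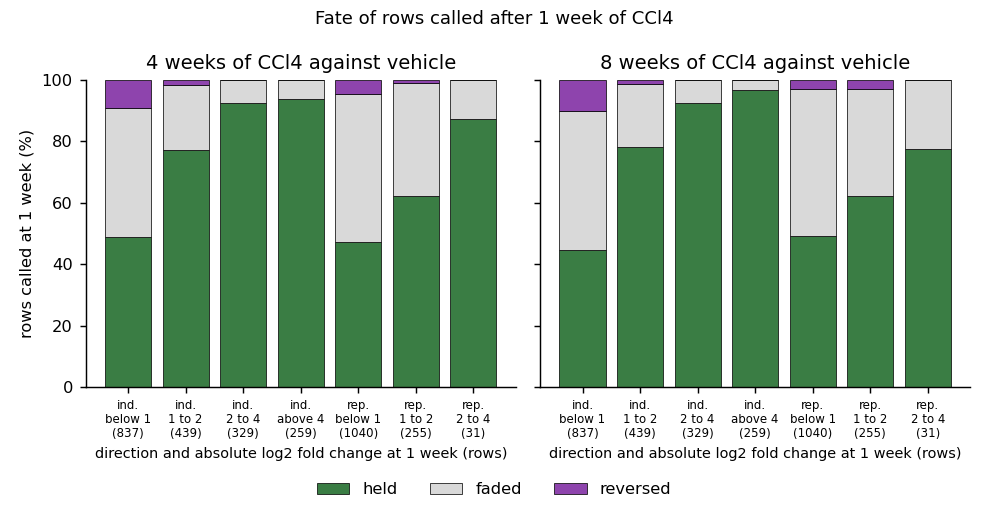
Share of the rows called at 1 week (vertical axis, percent) that were held (green), had faded (grey) or were reversed (purple) at 4 weeks (left) and 8 weeks (right) of CCl4 against vehicle, by direction (ind., induced; rep., repressed) and absolute log2 fold change at 1 week (horizontal axis; the number of rows is in brackets, and the class with 2 rows is left out). The held share of induced rows rises with the size class from 44.8% to 96.5% at 8 weeks.

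Whether a level changed between 1 week and the later times was tested directly, in contrasts that share the 1 week libraries with the selection of the rows, so that a return towards vehicle is favoured. Of all rows tested, 20.7% were higher and 20.8% lower at 4 weeks than at 1 week, and 20.8% were higher and 21.8% lower at 8 weeks. Of the induced rows, 538 were higher still at 4 weeks and 477 had come down, and at 8 weeks 615 were higher still and 460 had come down. Among the 1272 induced rows held at 8 weeks, 615 were above their 1 week level, 615 were not called and 42 were below it. Their median log2FC against vehicle went from 1.66 at 1 week to 2.34 at 8 weeks. These rows were chosen by their call at 8 weeks, which favours a higher level at that time. Of the 1328 repressed rows, 207 were lower still at 4 weeks and 506 had come back up, and at 8 weeks the counts were 212 and 451. The median log2FC of all repressed rows against vehicle was -0.72, -0.44 and -0.48 at 1, 4 and 8 weeks, and that of all induced rows 1.12, 1.22 and 1.30.

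The later responses comprised many rows that were not called at 1 week. Of the 2459 rows induced at both 4 and 8 weeks, 1203 (48.9%) had been induced at 1 week and 1238 had not been called then, with a median log2FC of 0.27 at 1 week. Some of these 1238 rows passed the FDR threshold at 1 week and only lay below the level threshold there, so they were not all new later. Without the level threshold, 2250 rows in place of 1864 were induced at 1 week, and 1404 in place of 1328 were repressed. Of the 2654 rows repressed at both, 610 (23.0%) had been repressed at 1 week, and the 1987 that had not been called had a median log2FC of -0.13.

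Some rows were called only at 1 week. A total of 227 induced rows were not called against vehicle at 4 or 8 weeks and were lower than at 1 week at both times, and 303 repressed rows returned in the same manner. Their median log2FC at 1 week was 0.79 and -0.75, and only 14 and 4 of them had changed at least 4-fold. The largest such induction was in row 852, with 0, 0, 0.898 and 0 CPM in vehicle libraries, 149, 90.7 and 84 CPM at 1 week, and 0.862 to 3.53 CPM at 4 weeks. Its 1 week mean was 482 times the vehicle mean, which rests on 4 counts (FDR = 2.48e-08, edgeR), and the fall from 1 to 4 weeks was a log2FC of -5.55 ± 0.39 (SE) (FDR = 8.11e-07, edgeR). The residue at 4 and 8 weeks still passed an FDR of 0.05 against vehicle (0.00351 and 0.00919) but lay below the level threshold. Chow libraries were at 0 to 0.57 CPM, so in this row the 1 week libraries stood above both kinds of control. Among repressed rows that had faded, row 15011 was at 1.54, 0, 28.3 and 20 CPM in vehicle libraries and at 2.27, 0 and 0.931 CPM at 1 week (log2FC -3.43 ± 1.20 (SE), FDR = 0.0445, edgeR). Its groups overlapped, and its call was lost in 12 of 26 alternative fits, among them those without vehicle replicate C or D (FDR = 0.154 and 0.0938), 1 week replicate A, B or C (FDR = 0.0643, 0.153 and 0.103), 4 week replicate D (FDR = 0.056) or 8 week replicate C (FDR = 0.0575) and the fit with the replicate letter as a block (FDR = 0.156).

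Reversals were small in number and in size. Row 11896 was at 8.8, 6.8, 11.4 and 7.69 CPM in vehicle libraries, at 22.1, 21.6 and 22.1 CPM at 1 week, at 3.87 to 5.49 CPM at 4 weeks and at 5.09 to 6.35 CPM at 8 weeks. Its log2FC against vehicle was 1.32 ± 0.22 (SE) at 1 week (FDR = 0.000289), -0.79 ± 0.22 at 4 weeks (FDR = 0.00698) and -0.62 ± 0.24 at 8 weeks (FDR = 0.0448, edgeR). Row 22013 was at 10.6, 27.9, 9.43 and 7.31 CPM in vehicle libraries, 54.2, 46.8 and 33.1 CPM at 1 week and 3.81 to 4.61 CPM at 8 weeks (log2FC against vehicle 1.68 ± 0.43 and -1.67 ± 0.52, FDR = 0.00863 and 0.0139, edgeR). In both rows every 8 week library was below every vehicle library and every 1 week library above them. Chow libraries were at 10.4 to 17 CPM in row 11896 and 16.3 to 24.1 CPM in row 22013, and neither row was called between 1 week and chow in the fit of 30 libraries (FDR = 0.14 and 0.112), whereas both were in a fit of 18 libraries (FDR = 0.0278 and 0.0477).

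In the other direction, row 12098 was at 29.3, 31, 27.6 and 32.7 CPM in vehicle libraries, fell to 9.06, 5.94 and 11.9 CPM at 1 week and stood at 75.1, 33 and 47.5 CPM at 8 weeks (log2FC -1.76 ± 0.28 and 0.80 ± 0.25 (SE), FDR = 0.000209 and 0.0135, edgeR). It was one of the repressed rows that were also lower than chow, where the libraries were at 14 to 20.7 CPM (log2FC -1.18, FDR = 0.0258, edgeR). Row 20707 went from 6.51 to 18.5 CPM in vehicle to 0.698 to 5.79 CPM at 1 week and 18.2 to 46.6 CPM at 8 weeks, but chow libraries were at 0.495 to 4.36 CPM and it was not called between 1 week and chow (log2FC 0.47, FDR = 0.702). Its call against vehicle was lost without vehicle replicate A (FDR = 0.0521) or D (FDR = 0.0811) and without 1 week replicate A (FDR = 0.11) or C (FDR = 0.0836).

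Reversed counts were the least stable of the fates. With the replicate letter as a block they were 50 and 56 for induced rows and 31 and 22 for repressed rows at 4 and 8 weeks. The 85 induced rows reversed at 4 weeks became 33, 51, 36 and 53 without vehicle replicate A, B, C or D and 38, 23 and 51 without 1 week replicate A, B or C. The 90 at 8 weeks became 38, 59, 45 and 51 without vehicle replicate A, B, C or D, 40 and 27 without 1 week replicate A or B and 158 without 4 week replicate A. The 51 repressed rows reversed at 4 weeks became 23, 23, 29 and 30 without a vehicle replicate, 14 without 1 week replicate A or B, and 77 and 86 without 8 week replicate A or B. The 39 at 8 weeks became 12, 18, 23 and 22 without a vehicle replicate, 11 and 12 without 1 week replicate A or B, 61 without 4 week replicate A, and 102 and 25 without 8 week replicate A or C.

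**Figure D5:**
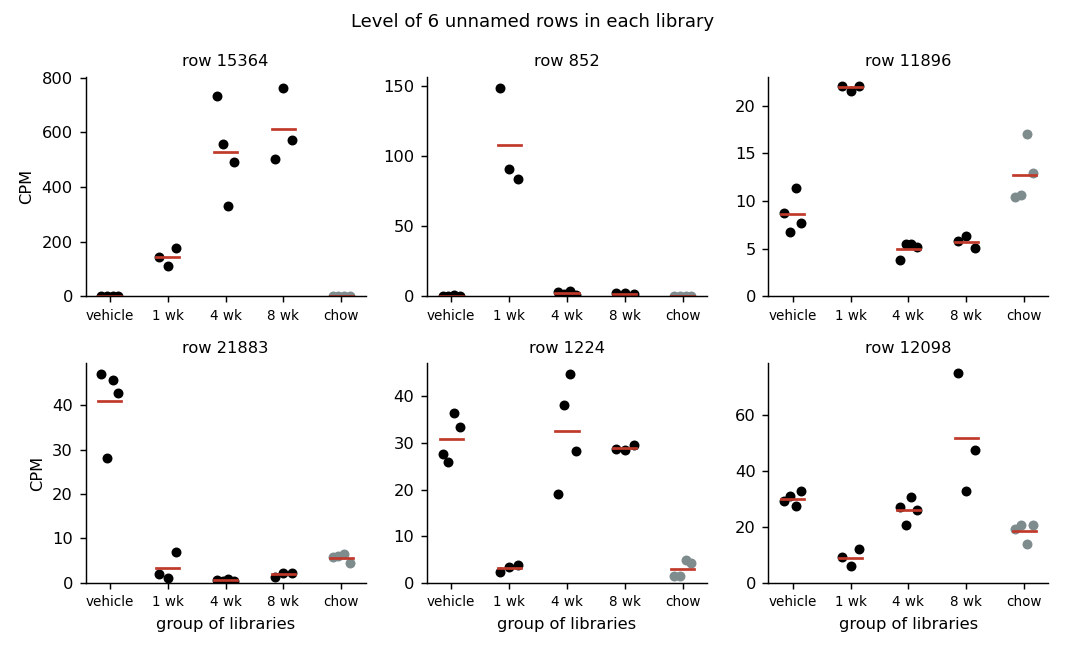
Level in CPM (vertical axis, starting at 0) of 6 unnamed rows in each vehicle, CCl4 and chow library (horizontal axis), with 1 point per library and the group mean as a red line. Row 15364 rises in steps, row 852 is high only at 1 week, row 11896 peaks at 1 week and falls below vehicle, row 21883 falls and stays low, and rows 1224 and 12098 dip at 1 week; in rows 1224 and 21883 the chow libraries are near those of 1 week and not near vehicle.

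A second control was used to read the same rows. In a fit of all 30 libraries from mice, with a larger estimate of the spread, 1 week of CCl4 against vehicle induced 1369 rows and repressed 1220 of 14120 tested, 9.7% and 8.64%. Against chow the same libraries gave 930 and 359 rows, 6.59% and 2.54% of those tested. Of the 1864 rows induced against vehicle, 772 were also induced against chow and 0 were repressed, with a median log2FC of 0.76. In a fit of 18 libraries without the WD groups, added after seeing the data, 1057 of them were induced and 1 was repressed against chow. The large inductions were the ones seen with both controls, in 94.2% of the rows with a log2FC above 4 and 82.1% of those with 2 to 4, against 9.44% of those below 1. Of the 1328 repressed rows, 205 were also repressed against chow and 13 were induced, with a median log2FC of -0.27, and in the fit of 18 libraries 373 were repressed and 34 induced. These counts share the 1 week libraries with the selection. Chow and vehicle mice also differed in gavage and fasting, and their libraries in number, and these differences cannot be told apart.

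The later libraries against chow share no library with the 2 groups whose contrast chose the rows, although the 4 and 8 week libraries entered the fit's estimate of the spread. Of all rows tested, 26.0% were induced and 24.2% repressed at 4 weeks against chow, and 27.1% and 23.1% at 8 weeks. Of the induced rows, 1033 (55.4%) were induced at 4 weeks and 238 (12.8%) were repressed, and at 8 weeks the counts were 1062 (57.0%) and 221 (11.9%). Their median log2FC was 0.90 and 1.02, against 0.07 and 0.13 for all rows. The repressed rows showed no such lean: 421 (31.7%) were repressed and 437 (32.9%) induced at 4 weeks against chow, and 388 (29.2%) and 432 (32.5%) at 8 weeks, with medians of 0.05 and 0.07.

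The values of the repressed rows against chow differed by fate. The 1, 4 and 8 week libraries also sorted the rows into fates. The values given here by fate are therefore partly set by that sorting and only describe the rows. The 610 repressed rows held at 4 and 8 weeks had a median log2FC of -0.55 at 1 week and -0.77 at 4 weeks against chow. By contrast, the 303 repressed rows that had returned at both later times had a median log2FC of 0.02 at 1 week against chow, where 2 were called repressed and 8 induced, and 264 of them (87.1%) were higher at 4 weeks than in chow. On the median of these rows the 1 week libraries were thus at the level of the chow libraries. The vehicle, 4 week and 8 week libraries lay above both. That they lay above the 1 week libraries was fixed by the selection of the rows, in which chow took no part. Chow and 1 week also stand together in the library numbers, and what sets these rows apart was not tested. Among the 227 induced rows that had returned, the median log2FC at 1 week was 0.26 against chow and 0.79 against vehicle, and 15 were called. The 1203 induced rows held at both times had medians of 1.42 at 1 week and 1.94 at 4 weeks against chow.

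The diet and culture experiments had their own controls, and neither used a library of the CCl4 experiment. After 12 weeks of WD against chow, 18.6% of all 13510 rows tested were induced and 6.61% repressed. Of the 1848 rows induced by 1 week of CCl4 and tested there, 563 (30.5%) were induced by WD and 48 (2.60%) repressed. The share induced by WD was 14.6% for rows with a CCl4 log2FC below 1, 27.6% for 1 to 2, 47.8% for 2 to 4 and 66.1% above 4. Of the rows repressed by 1 week of CCl4, 129 (9.75%) were repressed by WD and 148 (11.2%) were induced. Induced rows held at 4 and 8 weeks of CCl4 were induced by WD in 41.4% of 1192 cases, and those faded at both times in 9.23% of 379 cases.

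After 1 day in culture against 2 hours in suspension, 34.7% of 13655 rows were induced and 32.7% repressed. Of the 1694 rows induced by 1 week of CCl4 and tested there, 632 (37.3%) were induced and 549 (32.4%) repressed in culture, close to the shares of all rows. The class with a log2FC above 4 had 23.3% induced and 12.0% repressed of 150 rows, and the other 109 rows of that class did not pass the count filter there. Of the 1308 repressed rows tested, 595 (45.5%) were repressed in culture and 430 (32.9%) induced. Repressed rows held at 4 and 8 weeks of CCl4 were repressed in culture in 64.3% of 603 cases, whereas those that had faded at both times were repressed in 27.1% and induced in 49.1% of 487 cases. The study's methods describe the cultures as technical triplicates of sorted cells but call the RNA that was sequenced biological replicates, and what the spread between the culture libraries measures is not known here.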

How the data were processed

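RNA of sorted HSCs was sequenced by the authors. Per the labels, reads were processed with STAR and HOMER against mm10, versions not being given in the sources used here. The authors deposited unadjusted exon counts per listed gene, pooled over both strands and with at most 3 reads per position. Overlapping and antisense genes therefore cannot be told apart, and high counts can be compressed. A table each was given for the CCl4, WD and culture experiments, with 23999 rows in the same order. Groups were taken from the labels. Replicates were separate libraries, and no pair agreed within sampling noise. The study used 3 to 4 mice per condition.

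Counts of all 14 CCl4 libraries were fitted together with edgeR 4.0.16 (R 4.3.3) after TMM normalization and filterByExpr, and contrasts were tested by quasi-likelihood with Benjamini-Hochberg adjustment. Standard errors (SE) of a log2FC were calculated back from the test, as the absolute log2FC divided by the square root of its F statistic. Rows were called at FDR at most 0.05 and mean log2CPM above 2 over the compared groups, the thresholds of the study. Fitted fold changes of rows at 0 in a group are no bounds, so ratios were then given against 3 counts or with an exact interval. Only 10 induced rows and 1 repressed row were at 0 in the other group, and setting them at this bound left both medians unchanged. WD and culture libraries were fitted within their experiments, and 30 libraries from mice were fitted together for chow as control. CPM of chow libraries were scaled in this joint fit, and those of CCl4 libraries in the fit of 14. Medians and quartiles per library were compared with exact permutation tests (scipy 1.17.1). Rows described singly were the 5 highest and 5 lowest log2FC among called rows without overlap, the 3 most abundant called rows per direction and the 2 largest changes per fate and direction. The comparison, classes and rules were chosen with earlier results of these data known. The scripts were tested on simulated data.

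Replicate letters were checked for pairing: deviations from the group means of same-letter vehicle and 1 week libraries correlated at 0.191, 0.149 and 0.241 for A, B and C, all above 0.1, so the letters were also used as a replicate block. Pairs with different letters correlated at -0.3 to 0.209. Vehicle replicate A with 1 week replicate B, at 0.209, was above the same-letter values of A and B. These values therefore do not establish the letters as a pairing. The labels do not say what a letter marks. Alternatives covered test, normalization, filter, thresholds, block, depth, control group and single libraries. The fit of 18 libraries with chow as control was added after seeing the data.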

Additional observations from a re-analysis of the deposited data

Results flagged for a closer look

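CCl4 effects that differed between time points, by the test of the later group against 1 week, were found in 5600 rows at 4 weeks and 5763 rows at 8 weeks. Single libraries far from the other 3 of their group were found in 9 of 54 groups of 4 examined, and chance flags about 1 in 20 groups. That rate does not apply where 1 library has counts and the others none, as in the vehicle libraries of rows 852 and 15307. The rows examined were also picked for large changes or high levels. The number flagged can therefore not be read as an excess over chance. Among vehicle libraries, replicate D was at 42.7 CPM in row 12870 and at 2431 CPM in row 22691, replicate B was at 27.9 CPM in row 22013, replicate C was at 0.898 CPM in row 852 where the other libraries had no count, and replicate A was at 0.22 CPM, a single count, in row 15307. At 4 weeks, replicate A was at 67.6 CPM in row 853 and at 55.7 CPM in 1 other row among the most induced, replicate D was at 21.3 CPM in row 12870 and replicate B was at 3002 CPM in row 20735.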

How the results depend on the processing

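For the rows called at 1 week, the exact test (2007 induced, 1515 repressed), DESeq2 1.42.0 (1984 and 1709), RLE size factors (1394 repressed), library totals (1855 and 1245), no filter (1031 repressed), no level threshold (2250 and 1404), the replicate block (1587 and 920) and thinned counts (1524 and 948) stayed within 1.5 times the main counts. Requiring 2-fold gave 1027 and 288, and fitting the 7 compared libraries alone gave 2562 and 2332, with a common coefficient of variation of 0.149 in place of 0.208. In the order held, faded and reversed, 2-fold changes gave 852, 171 and 4 induced and 141, 146 and 1 repressed rows at 4 weeks, and faded and reversed counts of 171 and 3 induced and held, faded and reversed counts of 138, 148 and 2 repressed rows at 8 weeks. Chow as control in 30 libraries gave 930 and 359 called rows, with 834, 95 and 1 induced and 308, 50 and 1 repressed rows at 4 weeks, and 80 faded and 0 reversed induced and 297, 60 and 2 repressed rows at 8 weeks. In 18 libraries, an alternative chosen after seeing the data, chow gave 1384 induced and 802 repressed rows, with 170 faded and 20 reversed induced and 89 and 6 repressed rows at 4 weeks and 165 and 20, and 78 and 5, at 8 weeks. Reversed rows at 4 and 8 weeks were 88 and 93 (repressed, DESeq2), 62 at 8 weeks (repressed, RLE), 48 and 51 (induced) and 109 and 93 (repressed) with library totals, 24 and 19 (repressed) without a filter, and 39 and 38 (induced) and 24 and 20 (repressed) with thinned counts, where 446 repressed rows were held at 8 weeks. The replicate block gave 50 and 56 reversed induced and 31 and 22 reversed repressed rows and 397 repressed rows faded at 4 weeks, and moved no other count by more than 1.5 times. Leaving out 1 library gave 1295 to 2131 induced and 571 to 1620 repressed rows; at 4 weeks 1033 to 1368 held, 239 to 646 faded and 23 to 127 reversed induced rows, and 304 to 781, 253 to 786 and 14 to 86 repressed rows; at 8 weeks 1016 to 1390, 232 to 671 and 27 to 158, and 329 to 882, 231 to 794 and 11 to 102. Of 598 refits of the 23 rows described singly, 528 kept the call and 64 lost it with the sign of the fold change kept. In the other 6, all with chow as control, the call was lost and the fitted log2FC was above 0 but not called, in rows 1224 (0.007 and 0.022 with 30 and 18 libraries), 12870 (1.60 and 1.63, 1 count against none) and 20707 (0.47 and 0.47; FDR from 0.674 to 0.997 over these fits). The difference in median level was 0.08 to 0.27 over its alternatives, and its groups overlapped with library totals. The causes of these shifts were not tested. Depth limits the rows under about 1 CPM, where 3 counts could not be told from 0.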
